A study of Mus musculus with 6 samples.

Results

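The genes described here encode the proteins of the cytoplasmic ribosome in 4T1, a mouse mammary carcinoma cell line. They were matched by name: symbols beginning Rpl or Rps followed by a number, with the stalk proteins Rplp0, Rplp1 and Rplp2 and the small-subunit protein Rpsa, without S6 kinase genes and named pseudogenes. The family itself was chosen with earlier results of these data known. Of the 24346 gene symbols listed, 84 matched, and the 80 with a mean of at least 1 FPKM (fragments per kilobase of transcript, scaled to the mapped fragments of the library, a level corrected for transcript length) over the 6 libraries were kept. These 80 genes comprised 32 of the small subunit and 48 of the large subunit; 77 encode canonical subunits and 3 (Rpl7l1, Rpl22l1 and Rps27l) encode near relatives of a subunit. The 4 matching symbols under the level minimum were Rpl3l, Rpl10l, Rpl39l and Rps4l, also relatives of subunits. All 80 genes passed the level minimum used for testing, which left 11079 genes in all.

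The 6 RNA-seq libraries formed 3 groups of 2: mock-transfected 4T1 cells (WT), and 4T1 cells carrying either of 2 short hairpin RNAs, shRNA1 or shRNA3, against the long noncoding RNA AU021063. All 3 groups are the same cell line, and no other allele or agent is labelled. Cells with a hairpin against no mouse gene were not analysed here, so an effect of carrying a hairpin and an effect of the knockdown cannot be told apart. Whether the 2 libraries within each group stem from independent cultures is not labelled, and the p-values below therefore cover library-to-library spread alone, possibly technical. In bulk RNA, a smaller share of cells in a given state and less RNA per cell cannot be told apart.

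Ribosomal proteins, most of them present as a single copy per ribosome, join the ribosomal RNAs to form the small subunit, which reads the messenger RNA, and the large subunit, which joins the amino acids. Their messenger RNAs are among the most abundant of a growing cell, and most begin with a run of pyrimidines at the capped end, the terminal oligopyrimidine (TOP) tract, through which the mTOR kinase and the RNA-binding protein Larp1 control their translation and stability. Many of their genes carry small nucleolar RNA genes in introns and have left numerous processed pseudogenes, near-identical copies that can share sequencing reads with the parent gene.

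The start of the transcript is the feature by which this gene family is recognised, so windows around the RefSeq start site are shown for members on which the results below turn, with 3 further members (Rpl18, Rpl28, Rps26) whose tract lies next to the start. Sequences were read from RefSeq promoters of assembly GRCm38.p6, and capitals mark the longest unbroken run of pyrimidines beginning with C found from -20 to +50 bases around the start.
Rps2 (chr17:24720083-24720112, plus strand): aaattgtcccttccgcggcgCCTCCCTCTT
Rpsa (chr9:120127779-120127808, plus strand): ccgcccgtCCTTTCgcgctacccggggacg
Rpl22 (chr4:152325707-152325736, plus strand): cgacttcgCCCTgggaaaagcaatagctgg
Rpl13 (chr8:123102326-123102355, plus strand): tgacgtcaCTTCCCTTTCgcctgattttga
Rps6 (chr4:86857347-86857376, minus strand): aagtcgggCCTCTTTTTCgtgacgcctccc
Rpl18 (chr7:45718064-45718093, plus strand): gcaggccgCTCTTTCCCCgcccactccggc
Rpl28 (chr7:4792955-4792984, plus strand): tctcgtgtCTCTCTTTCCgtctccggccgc
Rps26 (chr10:128626481-128626510, minus strand): cgccggatCCTCTTTCgagtcttggctcca
Rps27l (chr9:66946066-66946095, plus strand): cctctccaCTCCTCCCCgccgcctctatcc
Rpl22l1 (chr3:28805503-28805532, plus strand): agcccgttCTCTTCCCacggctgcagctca
Rpl7l1 (chr17:46782654-46782683, minus strand): ctaccccgCCCggtgaggctgcgcaagcgc

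In these windows Rps6, Rpl13, Rpl18 and Rpl28 each hold a run of 10 bases, Rps26 and Rpl22l1 a run of 8 and Rps27l a run of 9. The longest run at Rpl7l1 was 3 bases. The longest run at Rpl22 was 4 bases in the entry shown, and 5 over all its promoter entries. The counts and medians below take the longest run over all entries of a gene. Not every run is at the start site: counted from the RefSeq start, the run of Rps2 begins at 41 and reaches the end of the promoter entry, that of Rpsa begins at 22, and those of Rpl13 and Rps27l begin at -16 and -12 and end before the start. Those of Rpl18, Rpl28, Rps6, Rps26 and Rpl22l1 begin between -2 and 5.

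Of the 60 members with a promoter entry, 47 (78.3%) held a pyrimidine run of at least 7 bases beginning with C in that interval, against 32.9% of 27025 genes with an entry and 32.3% of the 8515 tested genes with one. The median longest run was 10 bases in the members and 5 over all genes. In the whole promoter entry (250 bases before to 50 after the start, both strands), the ETS-type motif CCGGAAG was found in 25 members (41.7%), against 9.93% of all genes and 21.8% of tested genes. The motif AAGATGGC, of the YY1 type, was found in 6 (10%), against 3.19% and 5.64%. TATAAA was found in 7 (11.7%), against 15.7% and 8.17%. These are matches of letters on the reference, not measured binding. Across the 53 canonical members with an entry and a mean of at least 100 FPKM, the length of the run and the change under shRNA3 had a Spearman correlation of -0.12, given as a description over genes of the same libraries.

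Ribosomal protein messages made up a large share of all FPKM in every library, and that share was higher in both shRNA3 libraries. They took 18.7% and 18.9% of the summed FPKM in the WT libraries, 18.8% and 18.6% in the shRNA1 libraries, and 20.9% and 20.5% in the shRNA3 libraries. The shRNA1 values lay within or just below the WT range, while both shRNA3 values lay above it. The group means were 18.8% ± 0.115 (SD, n = 2) in WT, 18.7% ± 0.0997 (SD, n = 2) in shRNA1 and 20.7% ± 0.308 (SD, n = 2) in shRNA3. With 2 libraries a group, a permutation test of such a single value cannot pass 0.05, so none is given. Both subunits followed the same order: small-subunit genes took 7.84% and 7.93% in WT and 8.71% and 8.54% in shRNA3, and large-subunit genes 10.9% and 10.9% in WT and 12.2% and 11.9% in shRNA3. The ratio of large-subunit to small-subunit FPKM stayed between 1.37 and 1.40 in the 6 libraries. After quantile normalization, which forces the same distribution of values on every library, the shares were 19.6% in WT, 18.8% in shRNA1 and 20.0% in shRNA3.

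**Figure D1:**
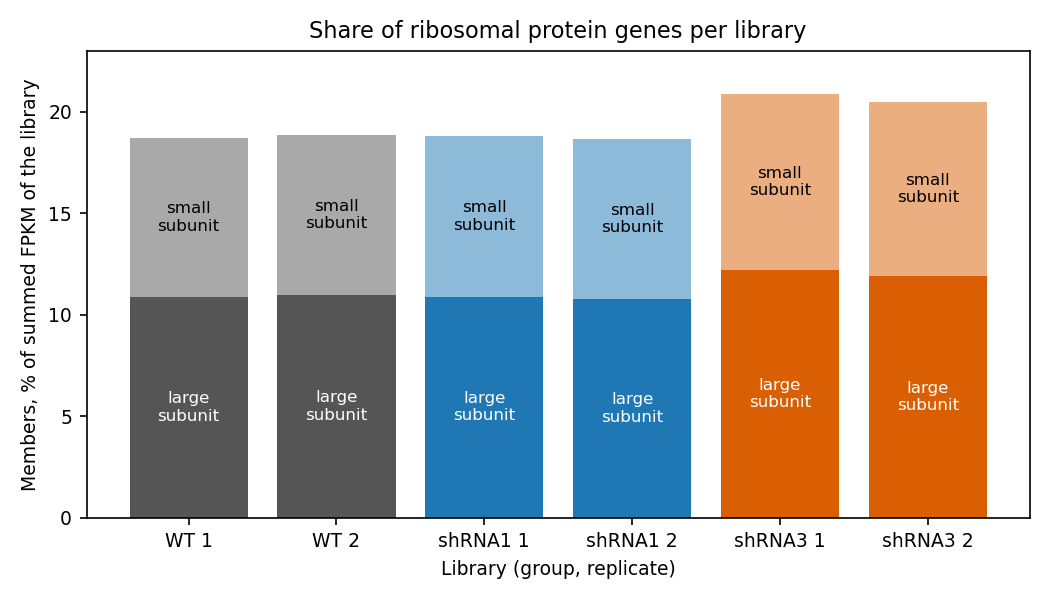
Share of the summed FPKM of each library (percent, vertical axis starting at 0) taken by small-subunit and large-subunit ribosomal protein genes, for the 2 WT, 2 shRNA1 and 2 shRNA3 libraries. The WT and shRNA1 libraries stand between 18.6% and 18.9%, and the shRNA3 libraries at 20.5% and 20.9%.

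The target RNA and the cell markers were read first as a check of the labels. AU021063 was listed at 1.82 and 1.67 FPKM in WT, 1.04 and 0.572 in shRNA1, and 0.785 and 0 in shRNA3, lower in all 4 hairpin libraries, at levels too low for a precise fold. Of 8 epithelial markers, 7 had a mean of at least 1 FPKM and Krt14 was at or near 0. Their summed level, mostly Krt8 and Krt18, was 954 to 990.3 in WT, 1050 to 1124 in shRNA1 and 765 to 769.9 in shRNA3. Krt8, Krt18, Krt7 and Cldn4 were lower in both shRNA3 libraries than in both WT libraries, whereas Epcam, Cdh1 and Cldn3 were higher. Of 5 fibroblast markers 2 passed 1 FPKM (Pdgfra and Col1a1, summed list 39.7 to 50.7), of 4 endothelial markers 0 did, and 2 red cell globins were at 0. Of 6 leukocyte markers only Cd68 passed, and its list rose from between 6.71 and 6.76 in WT to between 15.996 and 18.5 in shRNA1 and between 27.7 and 28.1 in shRNA3, while Ptprc and Cd3e were at 0 in every library. Mitochondrially encoded transcripts, listed as a sign of RNA quality, were not analysed here. The summed FPKM ran from 560862 to 604022 and was lowest in the WT libraries, so each count below is also given after every library was rescaled to the same total.

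Mean levels of the members ran from 2.28 FPKM (Rpl26) to 3969 (Rplp1), but most lay close together: 57 of 80 had a mean of at least 1000 FPKM, 73 of at least 100, and the median was 1330.2. Of the 100 genes with the highest mean in the series, 56 were members. The highest of the large subunit were the stalk protein Rplp1, at a mean of 3969 FPKM, Rpl41, which encodes the smallest protein of the ribosome, at 3643, the stalk protein Rplp2 at 2675, and Rpl23a, which lines the exit of the peptide tunnel, at 2641. The highest of the small subunit were Rps18 at 2774, the zinc-binding Rps29 at 2228, Rpsa at 2228 and Rps2 at 2121. Not all neighbours in this order were separated beyond their spread: Rps29 and Rpsa had nearly the same mean, while Rps29 ran from 2095 to 2317 and Rpsa from 1879.9 to 2563 over the libraries. The libraries of Rpl41, from 3342 to 3939, all lay above those of Rplp2, from 2497 to 2996. All 80 symbols matched protein-coding entries of GENCODE release M21 on 19 chromosomes, and 30 of the genes held 58 small nucleolar RNA genes between them.

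Under shRNA3 most ribosomal protein genes rose, by small amounts. Against WT, 65 of 80 rose and 2 fell at a limma Benjamini-Hochberg adjusted p under 0.05, where 27.4% of all tested genes rose and 27.8% fell. The median log2 change, on the log2(FPKM + 1) scale used throughout, was 0.21, against -0.01 over all tested genes. Over the 72 canonical members averaging 100 FPKM or more, the median change in FPKM was 16.4%, with a range from -1.83% to 33.8%. Over all 80 members the range was -20.5% to 130.4%. The subunits moved alike: 28 of 32 small-subunit genes rose and 1 fell (median 0.19), and 37 of 48 large-subunit genes rose and 1 fell (median 0.22). Both shRNA3 libraries lay above both WT libraries for 69 members and below for 3, where 38.6% and 40.1% of tested genes did so.

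After rescaling to the same total, 53 members rose and 3 fell under shRNA3 (background 21% and 34.8%), with a median of 0.14 against -0.08 over all tested genes. All 53 were among the 65 called on the deposited values, as were 2 of the 3 lower; the other one was Rps9. Rescaled, 67 members lay above both WT libraries and 4 below, against 31.1% and 47.4% of tested genes. The alternatives that follow were fitted to the deposited values, on which 65 rose with a median of 0.21. The number that rose was 42 without the first WT library, and 17 after quantile normalization. The median fell to 0.02 under quantile normalization, which gives every library the same values at every rank. The cause of that fall was not tested.

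**Figure D2:**
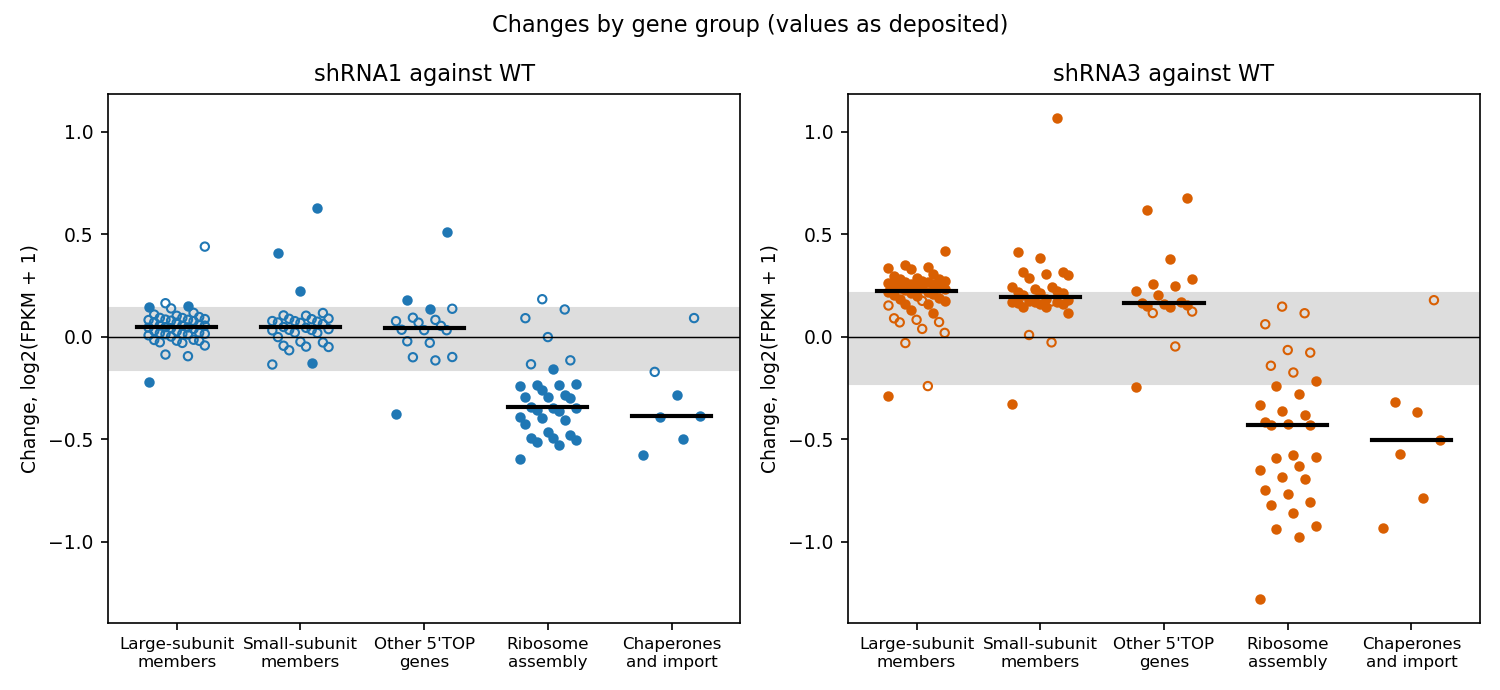
Log2 change (log2(FPKM + 1) scale, values as deposited) under shRNA1 and shRNA3 against WT for each gene of the large subunit, the small subunit, other TOP messages, ribosome assembly, and chaperones and import factors; filled points have a limma adjusted p under 0.05, black lines are group medians and the grey band spans the quartiles of all tested genes. Subunit medians are 0.22 and 0.19 under shRNA3 and 0.05 and 0.05 under shRNA1, and most assembly genes lie below 0 under both.

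Under shRNA1 few members passed the test on the deposited values. Of 80 members, 5 rose (Rps2, Rpsa, Rps27, Rpl11 and Rpl22) and 2 fell (Rps6 and Rpl22l1), where 17.6% of tested genes rose and 18.4% fell. The median log2 change was 0.05, against -0.01 over all tested genes. Rescaled to the same total, the median was -0.01 against -0.06, with 3 members higher and 6 lower (background 13.2% and 24.6%). Both shRNA1 libraries lay above both WT libraries for 42 members and below for 9 on the deposited values (32.2% and 36.8% of tested genes), and for 15 and 27 after rescaling (25.1% and 45.5%), so the direction of the small differences turned with the scale. Called under both scales were Rps2, Rpsa and Rps27, which rose, and Rps6 and Rpl22l1, which fell. Rps27 had a mean of 8.80 FPKM, against 2558 for its near-identical copy Rps27rt. The copy did not rise under shRNA1 (-0.04, limma adjusted p = 0.462, or -0.10, limma adjusted p = 0.0471, after rescaling). The alternatives that follow were fitted to the deposited values. After quantile normalization 25 members were called lower and 4 higher, with a median of -0.09. Without the first shRNA1 library 3 members rose. The lower calls of Rps6 and Rpl22l1 were both lost when either WT library or the first shRNA1 library was left out. That of Rps6 was also lost without the second shRNA1 library.

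The 2 hairpins were compared directly, since both comparisons above use the same WT libraries. Between shRNA3 and shRNA1, 57 of 80 members were higher in shRNA3 and 2 lower (background 22% and 20.5%), with a median difference of 0.17 against 0.01 over all tested genes. Rescaled, 60 were higher and 2 lower (19.6% and 21.3%), and the median was 0.16. Called under both scales were 56 of the higher genes and both of the lower. The alternatives in this paragraph other than rescaling were fitted to the deposited values. The number higher was 35 and 23 without the first and second shRNA1 library and 30 without the first shRNA3 library. The number lower was 0 without the second shRNA3 library, and 1 without the second shRNA1 or the first shRNA3 library. Averaged over both hairpins, 47 members were above WT and 2 below (24.1% and 25.9%), or 31 and 4 after rescaling (17.6% and 33.6%). With quantile normalization these averaged numbers were 6 and 13, and with the 4 knockdown libraries fitted as 1 group 2 and 0. The averaged number above was 17 and 28 without the first and second WT library, and 31 without the first shRNA1 library.

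Rps2, a small-subunit protein at the messenger RNA entry channel and a substrate of the arginine methyltransferase Prmt3, rose under both hairpins by about the same amount. Its levels were 1744 and 1756 FPKM in WT, 2301 and 2349 in shRNA1, and 2278 and 2297 in shRNA3, so all 4 hairpin libraries lay above both WT libraries and close to each other. The log2 change was 0.41 ± 0.04 (SE) under shRNA1 (limma adjusted p = 0.000162) and 0.39 ± 0.04 under shRNA3 (limma adjusted p = 0.000109), or 1.33-fold and 1.31-fold in FPKM. The difference between the hairpins was -0.02 ± 0.04 (limma adjusted p = 0.649). The gene lies at chr17:24718116-24721929 on the plus strand (mm10, GENCODE M21). Both calls held under each of 16 alternative settings, with the changes at 0.30 and 0.16 after quantile normalization.

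Rpsa, which completes the small subunit near the messenger RNA exit and is also known as the precursor of the laminin receptor, rose in steps. It measured 1879.9 and 1939 FPKM in WT, 2270.3 and 2191 in shRNA1, and 2563 and 2523 in shRNA3, with no overlap between any 2 groups. The log2 change was 0.22 ± 0.04 under shRNA1 (limma adjusted p = 0.00456) and 0.41 ± 0.04 under shRNA3 (limma adjusted p = 0.000116), and the difference between hairpins was 0.19 (limma adjusted p = 0.00777). Without the second shRNA1 library that difference was 0.16 (limma adjusted p = 0.0743). After quantile normalization the change of Rpsa was 0.09 under shRNA1 (limma adjusted p = 0.0938) and 0.19 under shRNA3 (limma adjusted p = 0.00308), and the difference 0.10 (limma adjusted p = 0.0576). Rpsa lies at chr9:120127689-120132369, plus strand.

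**Figure D3:**
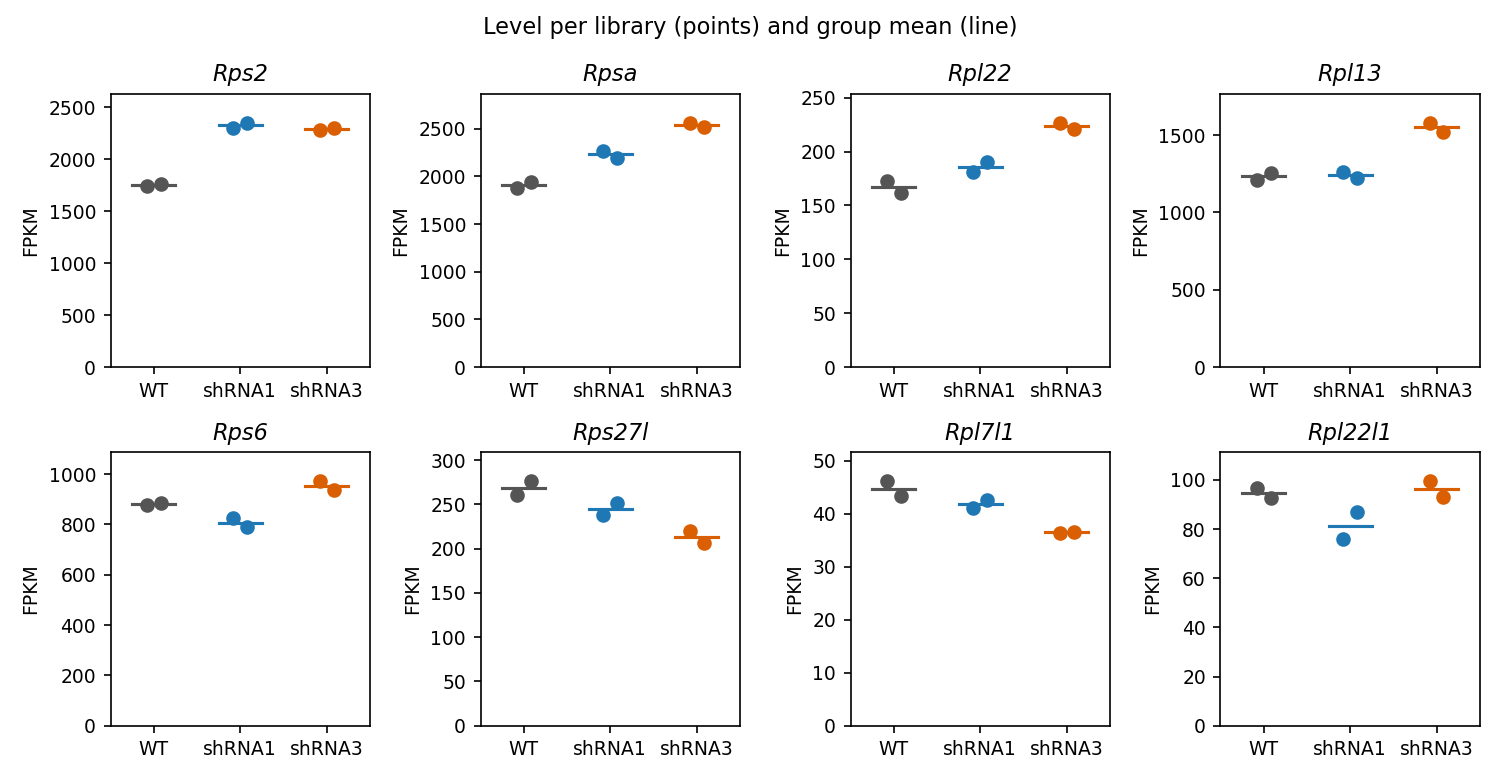
FPKM of 8 ribosomal protein genes (vertical axes starting at 0) in the 2 libraries of WT, shRNA1 and shRNA3, with points for libraries and lines for group means. Rps2 and Rpsa are above WT in all 4 hairpin libraries, Rpl22 and Rpl13 are highest in shRNA3, Rps6 is lowest in shRNA1, Rps27l and Rpl7l1 are lowest in shRNA3, and Rpl22l1 is lowest in shRNA1.

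The large-subunit genes Rpl13, Rpl3 and Rpl32 were described singly because their difference between the hairpins was among the highest of the members. Rpl13, a subunit whose introns carry small nucleolar RNAs, measured 1208 and 1258 FPKM in WT, 1259.5 and 1219.6 in shRNA1, and 1579 and 1519 in shRNA3. Its WT and shRNA1 libraries overlapped and both shRNA3 libraries lay above them. The log2 change was 0.01 under shRNA1 (limma adjusted p = 0.908) and 0.33 ± 0.04 under shRNA3 (limma adjusted p = 0.000441), and the hairpins differed by 0.32 (limma adjusted p = 0.000901). Rpl3, which reaches toward the peptidyl transferase centre, measured 1205 and 1217 in WT, 1249.8 and 1239.98 in shRNA1, and 1562 and 1503 in shRNA3. The shRNA1 libraries lay just above WT and the shRNA3 libraries well above both. Its log2 change was 0.04 under shRNA1 (limma adjusted p = 0.466) and 0.34 ± 0.04 under shRNA3 (limma adjusted p = 0.000238). Rpl32, on the outer face of the large subunit, measured 2236 and 2284 in WT, 2287 and 2144 in shRNA1, and 2749 and 2639.7 in shRNA3, with overlap of WT and shRNA1 only. After quantile normalization the shRNA3 changes of Rpl13, Rpl3 and Rpl32 were 0.15, 0.19 and 0.04, the last no longer called (limma adjusted p = 0.311). Rpl13 lies at chr8:123102350-123105244, plus strand, and Rpl3 at chr15:80077791-80091868, minus strand.

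The stalk proteins Rplp0, Rplp1 and Rplp2, which recruit the translation factors to the large subunit, rose under shRNA3. Rplp0 measured 1691 and 1764 FPKM in WT, 1845 and 1804 in shRNA1, and 2034 and 1983 in shRNA3. Rplp1 measured 3578 and 3759 in WT, 4038 and 3843 in shRNA1, and 4454 and 4144 in shRNA3. Rplp2 measured 2518 and 2509 in WT, 2537 and 2497 in shRNA1, and 2996 and 2989.6 in shRNA3. For Rplp0 and Rplp1 the order of the groups was WT, shRNA1, shRNA3 with no overlap, and for Rplp2 the WT and shRNA1 libraries overlapped. The log2 changes under shRNA3 were 0.22, 0.23 and 0.25 (limma adjusted p = 0.00283, 0.00712 and 0.000882), and those under shRNA1, of 0.08, 0.10 and 0.00, did not pass the threshold (limma adjusted p = 0.172, 0.163 and 0.975). After quantile normalization the shRNA3 changes of Rplp0 and Rplp2 were -0.01 and 0.02. The call for Rplp1 under shRNA3 was lost without the first WT library (0.19, limma adjusted p = 0.0679).

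Rpl11 and Rpl5, which with the smallest large-subunit ribosomal RNA form the particle that binds Mdm2, both rose under shRNA3; they are outside the rule for members described singly and were chosen after their values were seen. Rpl11 measured 1554 and 1541 FPKM in WT, 1719 and 1703.5 in shRNA1, and 1961 and 1865 in shRNA3, with log2 changes of 0.15 (limma adjusted p = 0.0271) and 0.31 (limma adjusted p = 0.000502). Rpl5 measured 622 and 597 in WT, 637 and 654 in shRNA1, and 757 and 714 in shRNA3, with log2 changes of 0.08 (limma adjusted p = 0.187) and 0.27 (limma adjusted p = 0.00144). Both shRNA3 libraries were the highest for each gene. The call for Rpl11 under shRNA1 was 0.09 after rescaling (limma adjusted p = 0.0631) and was lost when any single WT or shRNA1 library was left out (limma adjusted p = 0.107 to 0.134). After quantile normalization the shRNA3 changes were 0.11 for Rpl11 (limma adjusted p = 0.0322) and 0.06 for Rpl5 (limma adjusted p = 0.206).

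Rps18, which sits in the head of the small subunit and was its highest member, measured 2632 and 2697 FPKM in WT, 2642 and 2531 in shRNA1, and 3205 and 2934 in shRNA3. Its shRNA3 libraries lay above the other 4, which overlapped, and its log2 change under shRNA3 was 0.20 (limma adjusted p = 0.0117). That call was lost without the first WT library (0.19, limma adjusted p = 0.0784), and after quantile normalization the change was -0.07. Rps15a, at a mean of 89.1 FPKM far below most of its subunit, measured 86.5 and 80.7 in WT, 84.3 and 88.5 in shRNA1, and 100.1 and 94.2 in shRNA3. Its change under shRNA3 was 0.22 (limma adjusted p = 0.00989), or 0.14 after rescaling (limma adjusted p = 0.0557), so the rise was of the size seen in genes of much higher level. The Rps15a call was also lost without the second WT library (0.17, limma adjusted p = 0.0638) and without the first shRNA3 library (0.17, limma adjusted p = 0.0683).

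Rps6, the substrate of the S6 kinases and a common readout of mTOR activity at the protein level, was the canonical subunit that was lower under shRNA1. It measured 879 and 884 FPKM in WT, 824 and 791 in shRNA1, and 972 and 938 in shRNA3, so WT lay between the hairpin groups. The log2 change was -0.13 ± 0.04 under shRNA1 (limma adjusted p = 0.0424) and 0.11 under shRNA3 (limma adjusted p = 0.0425), and the hairpins differed by 0.24 (limma adjusted p = 0.00257). After rescaling, the shRNA1 change was -0.18 (limma adjusted p = 0.00316) and the shRNA3 change was 0.04 (limma adjusted p = 0.34). Both calls against WT were close to the threshold: that under shRNA1 was lost when any single WT or shRNA1 library was left out, with log2 changes from -0.16 to -0.10 (limma adjusted p = 0.077 to 0.225), and that under shRNA3 was lost without any 1 library other than the second shRNA3 library.

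Against WT, none of the 3 relatives of canonical subunits was called higher under either hairpin. Between the hairpins, Rpl22l1 was higher in shRNA3 (0.24, limma adjusted p = 0.0217), as most canonical members were, while Rps27l and Rpl7l1 were lower. Rps27l, a p53-responsive relative of Rps27, measured 261 and 276 FPKM in WT, 238 and 251 in shRNA1, and 220.3 and 207 in shRNA3. Every hairpin library lay below both WT libraries, and shRNA3 lay lowest. The log2 change was -0.33 ± 0.05 under shRNA3 (limma adjusted p = 0.00103), 1.26-fold lower in FPKM, and -0.13 under shRNA1 (limma adjusted p = 0.0742, or 0.0127 after rescaling). Rpl7l1, a nucleolar relative of Rpl7 in precursors of the large subunit, measured 46.1 and 43.3 in WT, 41.1 and 42.5 in shRNA1, and 36.3 and 36.6 in shRNA3, with the same order of groups. Its log2 change was -0.29 ± 0.05 under shRNA3 (limma adjusted p = 0.00165), 1.23-fold lower in FPKM, and -0.09 under shRNA1 (limma adjusted p = 0.17). Its partner Rpl7 rose under shRNA3 by 0.27 on the log2 scale (limma adjusted p = 0.000968), a call lost after quantile normalization (0.03, limma adjusted p = 0.46). Rps27l lies at chr9:66946086-66949516, plus strand, and Rpl7l1 at chr17:46773907-46782672, minus strand. These were the 2 members called lower under shRNA3, and both calls held under each of 16 alternative settings.

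Rpl22 and Rpl22l1 are a pair in which the Rpl22 protein represses its relative, and their patterns over the groups differed. Rpl22 measured 173 and 161 FPKM in WT, 181 and 190.4 in shRNA1, and 227 and 221 in shRNA3, without overlap between groups. Its log2 change was 0.42 under shRNA3 (limma adjusted p = 0.000242) and 0.15 ± 0.05 under shRNA1 (limma adjusted p = 0.0408), the latter 0.09 after rescaling (limma adjusted p = 0.183) and lost in 11 of 16 alternatives, including leaving out any library but the first WT library. Rpl22l1 measured 96.9 and 92.8 in WT, 76.1 and 86.8 in shRNA1, and 99.4 and 93.0 in shRNA3, so shRNA3 overlapped WT and shRNA1 lay below both. Its log2 change was -0.22 ± 0.07 under shRNA1 (limma adjusted p = 0.0347) and 0.02 under shRNA3 (limma adjusted p = 0.819). The shRNA1 call was lost without the first shRNA1 library (-0.13, limma adjusted p = 0.183) and without the first (-0.19, limma adjusted p = 0.149) or second WT library (-0.25, limma adjusted p = 0.0704). Rpl22 lies at chr4:152325742-152334071, plus strand, and Rpl22l1 at chr3:28805436-28807424, plus strand.

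**Figure D4:**
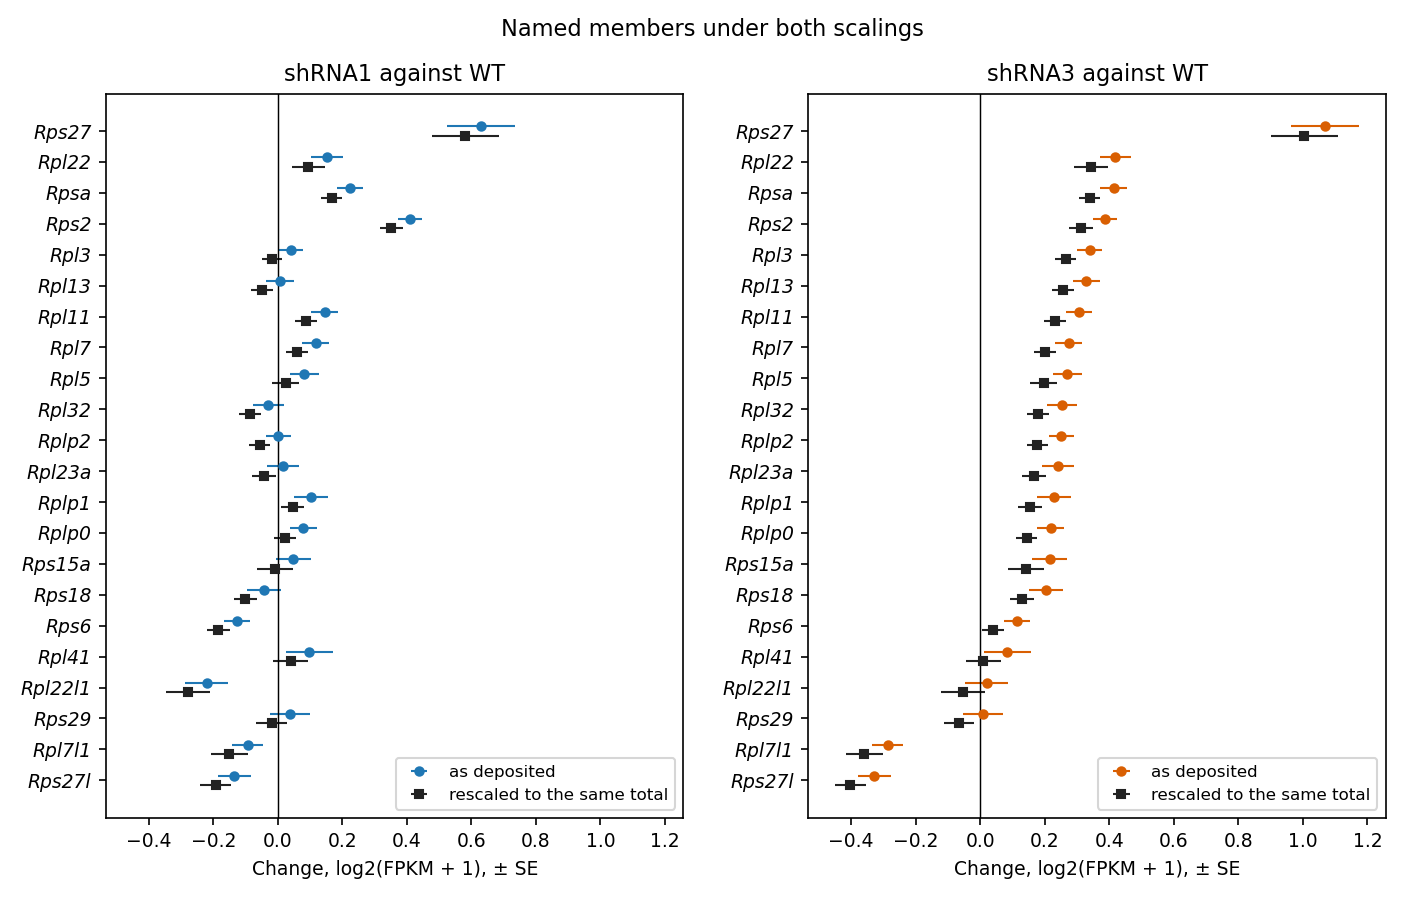
Log2 change (log2(FPKM + 1) scale, horizontal axis, with SE bars) of single ribosomal protein genes under shRNA1 and shRNA3 against WT, on the deposited values (circles) and after rescaling to the same total (squares). Rescaling moves every point to the left; Rps2 stays above 0 in both panels (0.41 and 0.39 as deposited), and Rps27l and Rpl7l1 stay below 0 under shRNA3 (-0.33 and -0.29 as deposited).

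Of the 80 members, 13 did not pass the test in either direction under shRNA3: Rpl10, Rpl22l1, Rpl23, Rpl26, Rpl30, Rpl34, Rpl36a, Rpl37, Rpl39, Rpl41, Rps9, Rps15 and Rps29, with log2 changes from -0.24 to 0.18. Rps29 measured 2095 and 2315 FPKM in WT, 2299 and 2224 in shRNA1, and 2317 and 2121 in shRNA3, with a log2 change under shRNA3 of 0.01 ± 0.06 (SE; limma adjusted p = 0.908). Rpl41 measured 3342 and 3640.2 in WT, 3877 and 3589.7 in shRNA1, and 3939 and 3468 in shRNA3, with a change of 0.08 ± 0.07 (limma adjusted p = 0.356). For both genes the libraries of one group spread as widely as the groups did. Rps9, a small-subunit protein bound early in assembly, measured 2000.1 and 2047.5 in WT and 2009.8 and 1964 in shRNA3, a change of -0.03 ± 0.04 (limma adjusted p = 0.618). After rescaling, Rps9 was called lower under shRNA3 (-0.10, limma adjusted p = 0.0294) and under shRNA1 (-0.12, limma adjusted p = 0.0187). Rps9 is outside the rule for members described singly and was chosen after its values were seen.

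The members with the shortest coding sequences were among those with the smallest change. Rpl41 (141 bases), Rpl39 (156) and Rps29 (171) had log2 changes under shRNA3 of 0.08, 0.07 and 0.01, whereas Rps28 (210), Rpl38 (213) and Rps21 (252) had 0.31, 0.23 and 0.22. Over the 72 canonical members at 100 FPKM or more, coding length and the change under shRNA3 had a Spearman correlation of 0.25, and under shRNA1 of -0.03. Length also moved with the difference between the 2 shRNA3 libraries: its correlation with the ratio of the first to the second was -0.48, against 0.12 in WT and -0.12 in shRNA1. Of the 80 members, 76 were higher in the first than the second shRNA3 library, against 28 in WT and 55 in shRNA1, and the median difference between the libraries of a group was 4.97% in shRNA3, 2.25% in WT and 2.61% in shRNA1. These correlations are across genes that share libraries and length-corrected units, and the part of length in the shRNA3 result was not tested.

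Near-identical copies limit what can be said of most members, and most plainly of 4. By alignment of coding sequences to GENCODE transcripts, 73 of 80 members had at least 1 other gene matching at 95% identity over 80% of the sequence, with a median of 5 copies and a maximum of 57 (Rpl21). For 14 members such a copy was listed in the data, and for Rps27, Rpl26, Rpl30 and Rpl34 the copy was listed far above the member itself. Reads that fell to copies not listed cannot be seen here. Rps27 was listed at 5.61 and 5.03 FPKM in WT, 9.90 and 7.77 in shRNA1, and 12.0 and 12.6 in shRNA3, with log2 changes of 0.63 ± 0.11 (limma adjusted p = 0.00299) and 1.07 (limma adjusted p = 0.000112). Its copy Rps27rt, protein-coding and identical over the aligned sequence, was listed at 2414 and 2509 in WT, 2354 and 2419 in shRNA1, and 2885 and 2769 in shRNA3. The changes of the copy were -0.04 (limma adjusted p = 0.462) and 0.20 (limma adjusted p = 0.00549), so the change of Rps27 itself is uncertain. Without the first WT library the shRNA3 call of the copy was lost (0.17, limma adjusted p = 0.0575), and after quantile normalization its change was -0.01. The copy, like the 3 that follow, was chosen after its values were seen.

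Rpl26 was listed at 3.39 and 0 FPKM in WT, 7.08 and 0 in shRNA1, and 3.21 and 0 in shRNA3, at 0 in the second library of every group. Its processed pseudogene Gm15772 was listed at 2023 and 2077, 2118 and 2077, and 2087 and 1952 in the same order, with a change under shRNA3 of -0.02 (limma adjusted p = 0.697). Rpl30, at 7.40 to 18.6 FPKM, had the processed pseudogene Gm12191 at 1777 to 2065, with a change of 0.09 (limma adjusted p = 0.238). Rpl34, at 14.7 to 25.9, had Rpl34-ps1 at 1305 to 1544, with a change of 0.15 (limma adjusted p = 0.0315, or 0.161 after rescaling and 0.213 without the second WT library). In all 4 pairs the copy was listed near the level of other ribosomal protein genes, and the sources used here do not state how reads were divided between parent and copy.

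**Figure D5:**
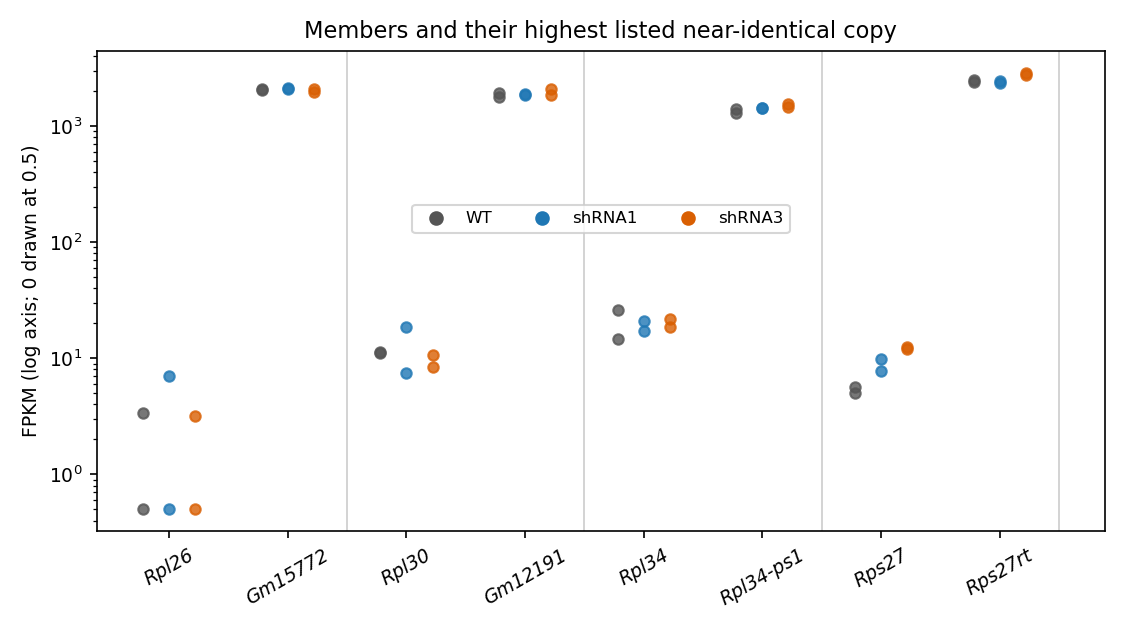
FPKM on a log axis (values of 0 drawn at 0.5) of the 4 members whose near-identical copy was listed above them, each beside that copy, with a point for each library of WT, shRNA1 and shRNA3. The copies lie between 1305 and 2885 FPKM and the members below 26.

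Related genes outside the name rule divided into those that moved with the ribosomal proteins and those that did not. Among further ribosomal components, Fau, whose product is a ribosomal protein fused to a ubiquitin-like domain, and Gnb2l1, the scaffold protein RACK1, rose under shRNA3 on either scale and passed no test under shRNA1. Fau measured 1074 and 1187 FPKM in WT, 1358 and 1217 in shRNA1, and 1518 and 1424 in shRNA3 (log2 change 0.38, limma adjusted p = 0.00214). Gnb2l1 measured 1193 and 1201 FPKM in WT, 1219 and 1191 in shRNA1, and 1469 and 1388 in shRNA3 (log2 change 0.25, limma adjusted p = 0.00146), and after quantile normalization its change was 0.05 (limma adjusted p = 0.318). Rpl36al, a relative of Rpl36a, had a change of -0.11 under shRNA3 (limma adjusted p = 0.167) and -0.17 under shRNA1 (limma adjusted p = 0.0586). After rescaling it was called lower under both, at -0.18 (limma adjusted p = 0.0122) and -0.23 (limma adjusted p = 0.00639). Of 18 other TOP messages, most of them translation factors, 14 rose and 1 fell under shRNA3 (median 0.17), where 27.4% of all tested genes rose and 27.8% fell. Under shRNA1, 3 rose and 1 fell (median 0.04), the former close to the 17.6% of all tested genes that rose. After rescaling these became 8 and 2 under shRNA3 (median 0.09; background 21% and 34.8%) and 1 and 4 under shRNA1 (median -0.01; background 13.2% and 24.6%). Among these Eif4b, an initiation factor that aids the helicase, measured 252 and 247 in WT, 262 and 271 in shRNA1, and 379 and 389 in shRNA3 (0.62 under shRNA3, limma adjusted p = 1.40e-05). Tpt1, the translationally controlled tumour protein, went the other way, with 4322 and 4287 in WT, 3282 and 3348 in shRNA1, and 3737 and 3542 in shRNA3.

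Most genes that build ribosomes fell under both hairpins, the opposite direction to the 65 ribosomal protein genes that rose under shRNA3. Of 33 genes of ribosomal RNA synthesis and subunit assembly, 27 fell and 0 rose under shRNA1 (median -0.34), and 26 fell and 0 rose under shRNA3 (median -0.43); after rescaling 29 and 28 fell. Of all tested genes, 18.4% fell under shRNA1 and 27.8% under shRNA3, or 24.6% and 34.8% after rescaling. Nop56, a core protein of the box C/D particles that methylate ribosomal RNA, measured 70.0 and 70.4 FPKM in WT, 48.5 and 50.6 in shRNA1, and 28.6 and 28.2 in shRNA3. The groups were far apart beside their spread, with log2 changes of -0.49 (limma adjusted p = 0.000144) and -1.28 (limma adjusted p = 9.72e-07). Of 7 chaperones and import factors for single ribosomal proteins, 5 fell under shRNA1 and 6 under shRNA3, or 6 and 6 after rescaling. Heatr3, which takes part in the import of Rpl5, measured 14.3 and 14.3 in WT, 11.6 and 11.6 in shRNA1, and 6.87 and 7.16 in shRNA3 (-0.93 under shRNA3, limma adjusted p = 1.24e-05). Of 11 genes that control TOP messages or ribosome production, 2 rose and 3 fell under shRNA3 on either scale, shares near those of all tested genes (27.4% and 27.8%). Those that rose were Rptor, the mTOR partner, at 0.65 (limma adjusted p = 9.58e-05), and Tsc1, an inhibitor of the mTOR pathway, at 0.28 (limma adjusted p = 0.00549). Those that fell were Max, the partner of Myc, at -0.44 (limma adjusted p = 0.000168), the S6 kinase gene Rps6kb1 at -0.19 (limma adjusted p = 0.0198), and Larp1 at -0.15 (limma adjusted p = 0.0362).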

How the data were processed

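RNA extracted with RNeasy was made into libraries with a TruSeq stranded mRNA kit, per the labels' protocols. The submitters' processing notes name TopHat2 2.0.13, Bowtie2 2.2.3, SAMtools 0.1.19, Cufflinks 2.2.1 and the build mm10. The sources used here name neither the annotation nor the handling of reads that match several genes. The authors deposited 1 FPKM value per gene and library. No counts were used, so depth in reads is unknown, and no counting interval is given. Cufflinks FPKM are estimates, and a listed 0 can be a failed estimate.

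The members and lists were chosen with earlier results of these data known. The 11079 genes averaging 1 FPKM or more were tested as log2(FPKM + 1) with limma 3.58.1 (trend, 1 fit over the 3 groups, 3 residual and 4.96 prior degrees of freedom; R 4.3.3), with Benjamini-Hochberg adjustment over all genes and a threshold of 0.05. The log2(FPKM + 1) scale understates changes of low genes. The code was tested on simulated data. Counts were repeated with all libraries scaled to equal totals, and the alternatives appear in the closing section. Members described singly were the 4 highest and 2 lowest of each subunit, the 4 highest and 4 lowest changes in each contrast, the relatives of subunits with their partners, and the stalk proteins; exceptions are stated in the text. Some items of the lists are not reported here. Coordinates are GENCODE M21 on mm10, and start windows are from RefSeq on GRCm38.p6.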

Additional observations from a re-analysis of the deposited data

Results flagged for a closer look

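For 18 of 24 ribosomal protein genes tabulated singly, the change against WT differed between the hairpins by a direct test of shRNA3 against shRNA1 (log2 scale, limma adjusted p). Over all tested genes 22% were higher and 20.5% lower in this contrast, and some of the 24 were chosen for their change in it. The difference was positive, with shRNA3 above shRNA1, for Rplp0 (0.14, adjusted p = 0.0286), Rpl7 (0.16, adjusted p = 0.0187), Rps15a (0.17, adjusted p = 0.0367) and Rpsa (0.19, adjusted p = 0.00777), and for Rpl11 (0.16, adjusted p = 0.0153) and Rpl5 (0.19, adjusted p = 0.0116). It was larger for Rpl23a (0.23, adjusted p = 0.00844), Rpl22l1 (0.24, adjusted p = 0.0217), Rps6 (0.24, adjusted p = 0.00257) and Rps18 (0.25, adjusted p = 0.00715). It was larger again for Rplp2 (0.25, adjusted p = 0.0016), Rpl22 (0.27, adjusted p = 0.0036), Rpl32 (0.28, adjusted p = 0.00239) and Rpl3 (0.30, adjusted p = 0.000812). Rpl13 (0.32, adjusted p = 0.000901) and Rps27 (0.44, adjusted p = 0.0118) differed most in size. The difference of Rps27 is uncertain, since its mean was 8.80 FPKM, against 2558 for its near-identical copy Rps27rt. For the 2 relatives Rps27l (-0.19, adjusted p = 0.0172) and Rpl7l1 (-0.19, adjusted p = 0.0149) shRNA3 was lower. The differences of Rpl3, Rpl13, Rpl22, Rpl32, Rplp2 and Rps6 were called under each of 16 alternatives, and the other 12 were lost in 2 to 8 of them, most often for Rplp0 (8), Rps15a (7), Rpl7 (5) and Rpl11 (5). With 2 libraries a group, no single library could be tested as standing apart.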

How the results depend on the processing

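The members called higher under shRNA3 against WT (65) stayed within 1.5 times that number under every alternative except quantile normalization (17) and leaving out the first WT library, with 42 to 68 over the libraries left out; those called lower (2) numbered 5 with quantile normalization and 2 over the libraries left out. For shRNA1 the numbers higher (5) and lower (2) became 3 and 6 with equal totals, 3 and 6 with equal totals of all other genes, and 3 and 0 with no filter on low values; the number lower was also 1 with median-of-ratios scaling and 25 with quantile normalization. Over the libraries left out they ran from 3 to 5 and from 0 to 2. For shRNA3 against shRNA1 the number higher (57) was 34 with quantile normalization and 29 with no filter, and 23 to 57 over the libraries left out, and the number lower (2) ran from 0 to 2. For both hairpins against WT the numbers higher (47) and lower (2) became 31 and 4 with equal totals, 6 and 13 with quantile normalization, and 2 and 0 with the 4 knockdown libraries as 1 group; with no filter 30 were higher, and over the libraries left out they ran from 17 to 54 and from 2 to 3. In the fits that leave out a library, the lone library of a group is assumed to vary like the others.

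The shares of summed FPKM became 19.6% in WT, 18.8% in shRNA1 and 20.0% in shRNA3 with quantile normalization. That setting also turned the direction of these log2 changes: against WT for both hairpins Rpl5 (-0.026), Rpl13 (-0.0041), Rpl23a (-0.017), Rpl32 (-0.051), Rplp0 (-0.031), Rplp2 (-0.047) and Gnb2l1 (-0.066), and under shRNA3 Rplp0 (-0.014), Rps18 (-0.071), Rps6 (-0.014), Rps27rt (-0.014) and Rpl34-ps1 (-0.038). By construction it gives every library the same values at every rank. Of the 100 highest genes 56 are members, and the part of this in the turned directions was not tested. Of 61 results on single members with a call, 19 kept it under every alternative.

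The replicate numbers are shared across groups, but the labels do not say that they pair libraries, and deviations of same-numbered libraries correlated at 0.02 (WT and shRNA1), -0.12 (WT and shRNA3) and 0.29 (shRNA1 and shRNA3). With a replicate block the numbers higher and lower were 64 and 2 for shRNA3, 4 and 0 for shRNA1, 48 and 2 for shRNA3 against shRNA1, and 39 and 2 for both hairpins. Depth is unknown, so precision rests on 2 libraries a group; where a value moved, the cause was not tested.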
